A study of Mus musculus with 16 samples.

Results

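Gene expression in bone marrow cells of 4 mice with the Srsf2 P95H mutation was compared with that of 4 wild-type mice, which are 8 of the 16 RNA-seq libraries of the series. The Srsf2P95H group has the genotype Srsf2P95H/+, a histidine in place of proline 95 of the splicing factor in 1 of its gene copies, and the mice it is set against, WT, are wild type. Where the same mutation is followed on a second background, DM mice (the mutation together with the transgene Asxl1Y588XTg, which encodes a shortened form of the chromatin regulator Asxl1) are set against Asxl1Tg mice (the transgene alone), 4 libraries each. All mice were C57BL/6, and each library holds RNA of 1 mouse. The cells were LSK cells, the Lin-cKit+Sca-1+ fraction of bone marrow that holds haematopoietic stem cells and multipotent progenitors, enriched with beads. The promoter of the transgene, any Cre driver, and the sex, age and batch of the mice are points not given in the sources used here. All 55291 genes of the count table were considered, and 22749 passed the filter on low counts and were tested.

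Srsf2 encodes an SR protein, one of a family of RNA-binding proteins that sit on exonic enhancers and recruit the splicing machinery. Mutations of proline 95 recur in human myelodysplastic syndromes and chronic myelomonocytic leukaemia, and the mutant protein is known to favour enhancers of the form CCNG over those of the form GGNG. Its known effect is thus on the choice of exons, which a table of counts per gene does not hold, so the values here are gene levels. The codon that the mutation replaces is shown in capitals in the reference coding strand (GENCODE M21, GRCm38, chr11:116852615-116852677, minus strand, codons 85 to 105 of 221), because it is the site of the mutation:
Srsf2 codons 85 to 105: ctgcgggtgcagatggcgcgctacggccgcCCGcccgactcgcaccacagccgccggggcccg
The codon CCG, for proline, occupies bases 116852645 to 116852647, in the coding sequence of a gene at chr11:116849901-116853094. Srsf2 itself had 234, 186, 231 and 247 CPM in Srsf2P95H 1 to 4, against 237, 216, 192 and 173 CPM in WT 1 to 4. The groups overlapped and the test was not passed (log2 fold change 0.14, SE 0.12, edgeR adjusted p = 0.477), so the level of the gene does not check the labels. Part of the exon sequence of Srsf2 is shared with Mettl23 (15.6%) and Mfsd11 (9.74%) on the other strand, and whether the counting used strand is not stated in the sources used here.

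The libraries were deep and alike in total, with 99.1 ± 6.08 M counts in Srsf2P95H and 97.8 ± 18.7 M in WT (SD, n = 4 each, two-sided exact permutation p = 0.971, where 0.0286 is the smallest p that 4 against 4 allows). Mitochondrially encoded genes took 0.846 ± 0.0550% of counts in Srsf2P95H and 0.864 ± 0.0607% in WT (exact permutation p = 0.657). Of the genes that go with the LSK label, Kit stood at 765 to 1034 CPM in Srsf2P95H and 882 to 1015 CPM in WT. Sca-1 (Ly6a) was lower, at 30.9 to 54.3 CPM in Srsf2P95H and 23.2 to 34.1 CPM in WT. Cd34, Flt3, Mecom, Hlf and Meis1 were also present, and the purity of the fraction was not tested. Of the lineage markers, Cd3e was at most 0.266 CPM and Ly6g at most 0.200 CPM in these 8 libraries, whereas the eosinophil gene Prg2 reached 867 CPM in WT 4. Immediate-early genes were highest in Srsf2P95H 2 and lowest in WT 4. Xist was high in 3 libraries, Srsf2P95H 2, Srsf2P95H 3 and WT 1.

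At an adjusted p under 0.05 (edgeR's quasi-likelihood test on all 16 libraries, Benjamini-Hochberg over all genes tested), 115 genes were called, 0.506% of those tested, of which 60 (0.264%) were higher and 55 (0.242%) lower in Srsf2P95H. In all 115 the 4 libraries of one group lay apart from those of the other, as they did for 8.33% of all genes in the higher and 5.4% in the lower direction. The edge of the call was crowded. Another 616 genes had an adjusted p between 0.05 and 0.06, and 5757 genes (25.3%) had an unadjusted p under 0.05, 3232 of them higher and 2525 lower. The genes that rose were mostly well expressed and moved little, with a median mean level of 33.2 CPM and a median absolute log2 fold change of 0.54. The genes that fell were mostly scarce and moved further, with medians of 4.12 CPM and 1.06, against 3.46 CPM and 0.26 over all genes tested. With library size in place of TMM scaling the split became 40 higher and 177 lower, as that scaling shifts the median log2 fold change over all genes by -0.11.

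**Figure D1:**
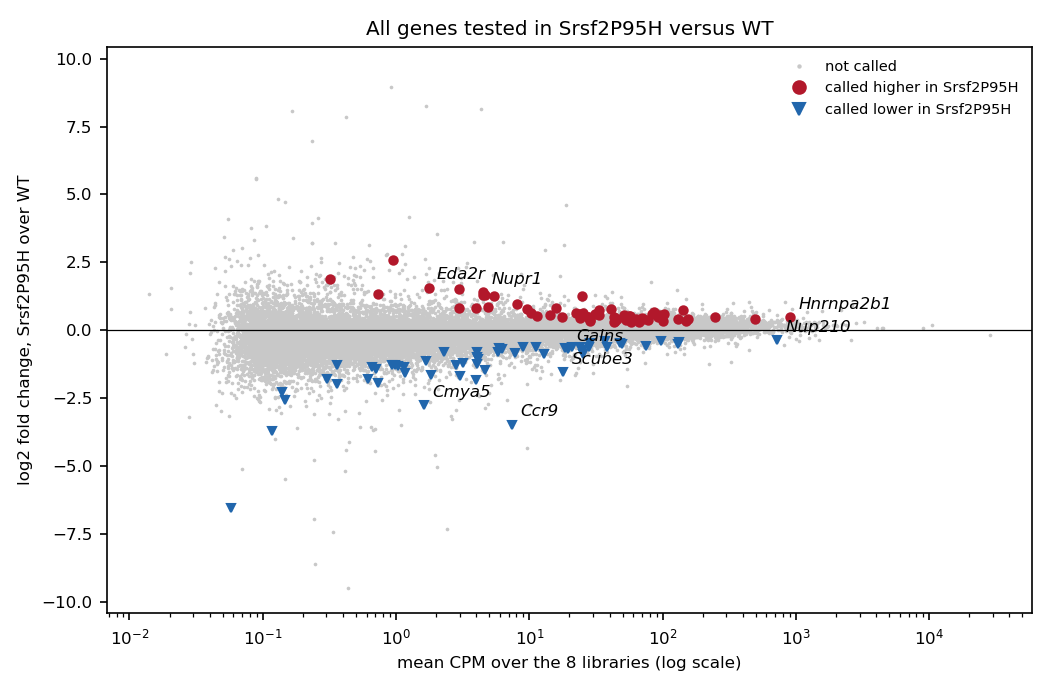
Each point is a gene tested, with its mean CPM over the 8 libraries (log scale) on the x axis and its log2 fold change, Srsf2P95H over WT, on the y axis; red circles are the 60 genes called higher and blue triangles the 55 called lower. The called falls reach larger sizes and lower levels than the called rises.

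The number of calls varied widely when single libraries were left out, and between tools. Without Srsf2P95H 1, 2, 3 or 4 in turn, 1, 1532, 26 and 0 genes were called, and without WT 1, 2, 3 or 4, 1638, 26, 0 and 1 genes. A fit on the 8 compared libraries alone called 2 genes, limma-voom 1633 and DESeq2 2602, and DESeq2 also made more false calls than its nominal rate on simulated counts. The number of genes at an unadjusted p under 0.05 ran from 4073 to 6415 over these and the other settings run. Each call of a single gene given here was lost in at least 1 of the 21 alternatives, but none of the named genes turned its direction in any of them. WT 1 was the WT library nearest to the Srsf2P95H mean for 77 of the 115 called genes, and WT 4 the farthest for 53.

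**Figure D2:**
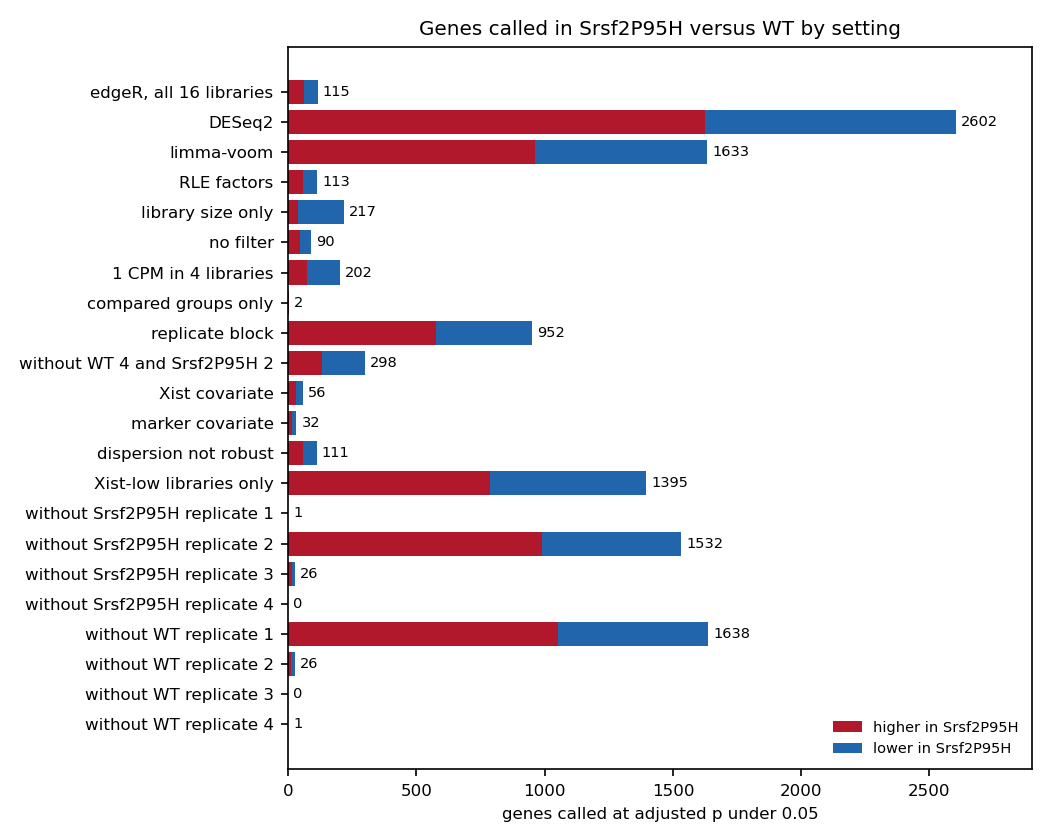
Bars give the number of genes called at an adjusted p under 0.05 in Srsf2P95H versus WT under each setting, split into higher (red) and lower (blue). The count runs from 0 without Srsf2P95H 4 or without WT 3 to 2602 with DESeq2.

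Among the genes that rose, several encode receptors, ligands and adhesion proteins of the cell surface. Eda2r (chrX:97333840-97377216), a receptor of the tumour necrosis factor family and a p53 target, had 2.74, 2.71, 2.88 and 2.17 CPM in Srsf2P95H 1 to 4, against 1.02, 0.708, 0.995 and 0.815 CPM in WT 1 to 4. Every mutant library was above any WT library (log2 fold change 1.57, SE 0.26, edgeR adjusted p = 0.0183). Jag1, a Notch ligand (chr2:137081456-137116644), had 4.29, 3.24, 3.52 and 3.94 CPM in Srsf2P95H 1 to 4, against 2.52, 1.90, 2.11 and 2.05 CPM in WT 1 to 4. The groups did not overlap and WT 1 was the nearest of the controls (log2 fold change 0.81, SE 0.16, edgeR adjusted p = 0.0379). Neo1 (neogenin), a receptor for netrins and repulsive guidance molecules, had 6.51, 4.68, 9.52 and 5.69 CPM in Srsf2P95H 1 to 4, against 3.78, 2.04, 2.14 and 2.82 CPM in WT 1 to 4, with Srsf2P95H 3 highest and WT 1 closest to the mutants (log2 fold change 1.29, SE 0.26, edgeR adjusted p = 0.0401). Tln2, the talin that links integrins to actin in parallel with the far more abundant Tln1, stood at 3.85 to 4.98 CPM in Srsf2P95H and 0.854 to 2.79 CPM in WT, with WT 1 at 2.79 and the other WT libraries at 1.44 or less (log2 fold change 1.53, SE 0.33, edgeR adjusted p = 0.0474). Tln1 had 1207 to 1426 CPM in Srsf2P95H and 1288 to 1350.2 CPM in WT, and was not called (log2 fold change -0.02, SE 0.073, edgeR adjusted p = 0.907). Lypd6b and Ric3, both known for acting on nicotinic acetylcholine receptors in other tissues, rose by 1.30 and 0.85 on the log2 scale. Clec4e, a myeloid receptor for microbial and cell-death ligands (Mincle), had 28.1, 23.9, 26.4 and 30.4 CPM in Srsf2P95H 1 to 4, against 16.6, 18.1, 19.4 and 15.9 CPM in WT 1 to 4. All 4 mutants were above all 4 controls (log2 fold change 0.63, SE 0.11, edgeR adjusted p = 0.0183).

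Nupr1, a small chromatin-associated protein induced by cell stress (chr7:126623249-126630861), had 8.13, 4.78, 5.54 and 7.73 CPM in Srsf2P95H 1 to 4, against 3.23, 1.94, 1.47 and 3.28 CPM in WT 1 to 4. Both groups were spread, and the lowest mutant lay above the highest control (log2 fold change 1.40, SE 0.27, edgeR adjusted p = 0.0379). Dglucy, the mitochondrial D-glutamate cyclase, had 34.5, 32.0, 29.5 and 44.6 CPM in Srsf2P95H 1 to 4, against 16.5, 14.1, 14.7 and 13.7 CPM in WT 1 to 4, with every mutant above every control (log2 fold change 1.25, SE 0.23, edgeR adjusted p = 0.0379). Ggcx, the vitamin K-dependent gamma-glutamyl carboxylase, had 29.0, 29.3, 24.9 and 32.3 CPM in Srsf2P95H 1 to 4, against 20.8, 19.4, 17.9 and 18.6 CPM in WT 1 to 4. Its WT libraries lay within 17.9 to 20.8 CPM and no mutant came below 24.9 (log2 fold change 0.59, SE 0.086, edgeR adjusted p = 0.0129). Akr1b10, an aldo-keto reductase, rose by 0.37 and Afp, alpha-fetoprotein, by 0.81 on the log2 scale. Psma8, the germline alpha subunit of the proteasome, stood at 9.59 to 13.2 CPM in Srsf2P95H and 4.14 to 7.80 CPM in WT, with Srsf2P95H 1 above the other mutants (log2 fold change 0.96, SE 0.20, edgeR adjusted p = 0.0415). Ak6, an adenylate kinase (0.82), shares 56.5% of its exon bases with Taf9 on the same strand, and Tnfsf13os (1.24) lies antisense to Tnfsf13, so both values are uncertain. Taf9 (-0.09) and Tnfsf13 (0.52) were not called.

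The most abundant of the called genes was Hnrnpa2b1, an hnRNP protein that binds RNA and takes part in splicing and transport (chr6:51460932-51469894). It had 1103, 975, 1058 and 1036 CPM in Srsf2P95H 1 to 4, against 816, 782, 737 and 676 CPM in WT 1 to 4. The lowest mutant was above the highest control (log2 fold change 0.47, SE 0.094, edgeR adjusted p = 0.0388). Taf1d, a subunit of the RNA polymerase I selectivity factor whose transcripts overlap small nucleolar RNA genes, had 516 to 610.5 CPM in Srsf2P95H and 357 to 465 CPM in WT (log2 fold change 0.42, SE 0.086, edgeR adjusted p = 0.0406). Atad2, a bromodomain ATPase of proliferating cells, had 235 to 325 CPM in Srsf2P95H and 196 to 216 CPM in WT (log2 fold change 0.49, SE 0.10, edgeR adjusted p = 0.0406). Slfn9, a Schlafen family gene, had 155 to 202 CPM in Srsf2P95H and 93.2 to 132 CPM in WT (log2 fold change 0.74, SE 0.14, edgeR adjusted p = 0.0379). Selenof, a selenoprotein of the endoplasmic reticulum, and Rab31, a small GTPase of endosomal traffic, rose by 0.40 and 0.35 on the log2 scale.

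**Figure D3:**
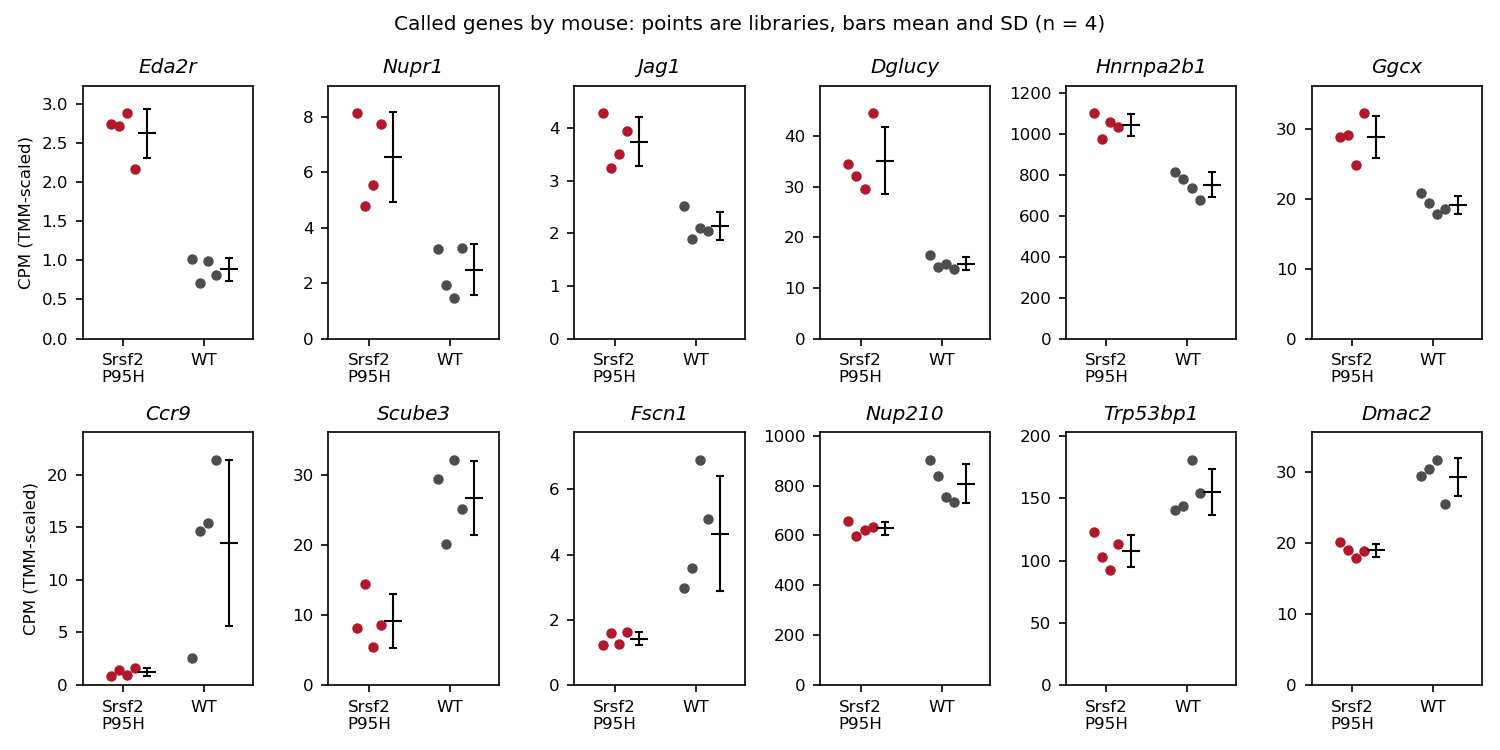
CPM (TMM-scaled) of 12 called genes in each library, Srsf2P95H (red) left of WT (grey), with the mean and SD (n = 4) as black bars; each y axis starts at 0. The upper row holds rises and the lower row falls, and in each panel the 4 libraries of one group lie apart from the 4 of the other, with WT 1 of Ccr9, at 2.56 CPM, closest to the mutants.

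Among called genes of at least 1 CPM the largest fall was in Ccr9, the receptor for the chemokine CCL25 on early lymphoid progenitors and thymocytes (chr9:123678439-123784330). It had 0.850, 1.40, 0.971 and 1.62 CPM in Srsf2P95H 1 to 4, against 2.56, 14.6, 15.4 and 21.4 CPM in WT 1 to 4. WT 1 lay close to the mutants and far below the other WT libraries (log2 fold change -3.48, SE 0.50, edgeR adjusted p = 0.0129). Lax1, a transmembrane adaptor of lymphocyte signalling, had 14.7, 24.6, 15.5 and 16.3 CPM in Srsf2P95H 1 to 4, against 28.2, 28.8, 38.5 and 36.8 CPM in WT 1 to 4. Srsf2P95H 2 stood above the other mutants and still below every control (log2 fold change -0.89, SE 0.19, edgeR adjusted p = 0.0451). Flt3, the receptor tyrosine kinase of lymphoid-primed progenitors, had 297, 407, 327 and 310.0 CPM in Srsf2P95H 1 to 4, against 319, 564, 705 and 644 CPM in WT 1 to 4, so that WT 1 again fell among the mutants, and it was not called (log2 fold change -0.73, SE 0.23, edgeR adjusted p = 0.0791). In bulk samples such as these, fewer cells of a type and less RNA per cell cannot be told apart. Cd276 (B7-H3), a surface protein of the B7 family, had 0.930 to 2.32 CPM in Srsf2P95H and 4.13 to 7.63 CPM in WT (log2 fold change -1.83, SE 0.32, edgeR adjusted p = 0.0214).

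Fscn1 (fascin), which bundles actin filaments (chr5:142960343-142973185), had 1.22, 1.59, 1.26 and 1.63 CPM in Srsf2P95H 1 to 4, against 2.98, 3.59, 6.92 and 5.09 CPM in WT 1 to 4. The mutants were tightly grouped and the controls spread (log2 fold change -1.70, SE 0.27, edgeR adjusted p = 0.0151). Scube3, a secreted protein with CUB and EGF domains (chr17:28142141-28174854), had 8.09, 14.4, 5.43 and 8.55 CPM in Srsf2P95H 1 to 4, against 29.4, 20.1, 32.1 and 25.1 CPM in WT 1 to 4. Its highest mutant, Srsf2P95H 2, was below the lowest control, WT 2 (log2 fold change -1.55, SE 0.25, edgeR adjusted p = 0.0182). Cmya5 (myospryn), a large cytoskeletal anchoring protein known from muscle, fell by 2.77 on the log2 scale, with WT 1 at 0.670 CPM beside 2.60 to 5.33 CPM in the other WT libraries. Stk36, the mouse counterpart of the Hedgehog pathway kinase Fused, fell by 1.35, Gipc3 by 1.47, Mast1 by 1.58, Wdr86 by 1.65, Gdpd5 by 1.32, Rwdd3 by 1.28 and Nacad by 1.25. Of the genes that fell, Mast1 shares 25% of its exon bases with Dnase2a on the other strand, and Rwdd3 (39.8%), Cmya5 (20.7%) and Ccr9 (18.8%) share some with transcripts of unknown function there.

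The falls that follow were smaller than those above and had smaller SEs. The mean level of these genes over the 8 libraries ran from 19.4 CPM (Galns) to 718 CPM (Nup210). Nup210, a membrane glycoprotein of the nuclear pore (chr6:91013068-91116829), had 657, 597, 623 and 635 CPM in Srsf2P95H 1 to 4, against 904, 839, 755 and 734 CPM in WT 1 to 4. The highest mutant was below the lowest control (log2 fold change -0.36, SE 0.075, edgeR adjusted p = 0.0406). Trp53bp1 (53BP1), which binds damaged chromatin and directs repair of double-strand breaks, had 123, 102, 92.3 and 113 CPM in Srsf2P95H 1 to 4, against 140.3, 143, 181 and 154 CPM in WT 1 to 4. The groups did not overlap (log2 fold change -0.52, SE 0.092, edgeR adjusted p = 0.0236), and 15% of its exon bases lie over Tubgcp4 on the other strand. Dmac2, a mitochondrial assembly factor (chr7:25619414-25625551), had 20.2, 19.0, 17.9 and 18.9 CPM in Srsf2P95H 1 to 4, against 29.5, 30.5, 31.8 and 25.6 CPM in WT 1 to 4. It had the smallest adjusted p of the named genes and was called in 18 of 21 alternatives (log2 fold change -0.63, SE 0.079, edgeR adjusted p = 0.00948). Galns, the lysosomal sulfatase of keratan and chondroitin sulfate, had 15.1, 14.5, 15.2 and 14.2 CPM in Srsf2P95H 1 to 4, against 27.4, 25.2, 22.1 and 21.7 CPM in WT 1 to 4, with the mutants within 14.2 to 15.2 CPM (log2 fold change -0.71, SE 0.11, edgeR adjusted p = 0.0151). Pip5k1c, a kinase that makes phosphatidylinositol bisphosphate, had 103 to 117 CPM in Srsf2P95H and 143 to 159.7 CPM in WT (log2 fold change -0.43, SE 0.077, edgeR adjusted p = 0.0256).

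The same mutation was then read in mice that also carried the Asxl1 transgene, by setting DM against Asxl1Tg. None of these libraries enters the fold changes of Srsf2P95H versus WT, but all share the fit, so that the filter and the dispersions behind the 115 calls rest on them too, and the fit without them called 2 genes. There 245 genes (1.08%) were called. Of the 115 genes called in Srsf2P95H versus WT, 107 (93%) had the same direction in DM versus Asxl1Tg, against 63.2% of all genes tested. Of the 115, 25 (21.7%) were also called in DM versus Asxl1Tg in the same direction. Among all genes tested, 0.998% were called in DM versus Asxl1Tg with the sign they had in Srsf2P95H versus WT, called there or not. The changes were smaller there, with a median of 0.32 in the called direction against a median absolute log2 fold change of 0.66 in Srsf2P95H versus WT, where the genes had been chosen. With only the libraries low in Xist, Srsf2P95H 1 and Srsf2P95H 4 were left against WT 2, WT 3 and WT 4. That fit called 1395 genes, with 98 of the 115 among them, and 55.41% of the 1395 had the same direction. The share over all genes was not taken for that fit.

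Eda2r (1.59, edgeR adjusted p = 0.0121), Lypd6b (1.61, adjusted p = 0.00894) and Psma8 (1.01, adjusted p = 0.0278) rose in DM over Asxl1Tg by log2 fold changes close to those in Srsf2P95H over WT. Ggcx (0.52), Clec4e (0.65), Akr1b10 (0.47) and Ric3 (0.87) also rose in both. Among the falls, Galns (-1.01), Dmac2 (-0.81, adjusted p = 0.000279) and Nup210 (-0.65) were called in DM over Asxl1Tg, as were Fscn1 (-1.29), Trp53bp1 (-0.52) and Pip5k1c (-0.37). Of these, Eda2r, Lypd6b, Ggcx, Clec4e, Akr1b10, Galns, Dmac2 and Nup210 met the naming rule of a small p and the same direction in DM versus Asxl1Tg. Their agreement there was fixed by that rule. Other genes had values near 0 there, among them Ccr9 (-0.03), Tln2 (0.11) and Gipc3 (-0.02). In Asxl1Tg, without the Srsf2 mutation, Ccr9 averaged 1.18 CPM, beside 1.21 CPM in Srsf2P95H and 13.5 CPM in WT. Tln2 averaged 4.28 CPM in Asxl1Tg, beside 4.38 CPM in Srsf2P95H and 1.52 CPM in WT. For Gipc3 the means were 5.31 CPM in Asxl1Tg, 2.47 CPM in Srsf2P95H and 6.86 CPM in WT. The opposite direction was seen in 8 of the 115, and these were looked up after their values were seen. Matn4, a matrilin of the extracellular matrix, was at 1.25 to 2.05 CPM in Srsf2P95H and 0.188 to 0.360 CPM in WT (log2 fold change 2.59, SE 0.39, edgeR adjusted p = 0.0129), and its log2 fold change in DM over Asxl1Tg was -0.28. Serpina3g, a serine protease inhibitor, was called in both with opposite signs (0.51 and -0.44). The interaction of the mutations, which tests such differences, called 0 genes with edgeR and with limma-voom and 52 with DESeq2, and 2670 genes had an unadjusted p under 0.05 with edgeR. For Serpina3g its edgeR adjusted p was 0.0851 and for Ccr9 0.272.

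**Figure D4:**
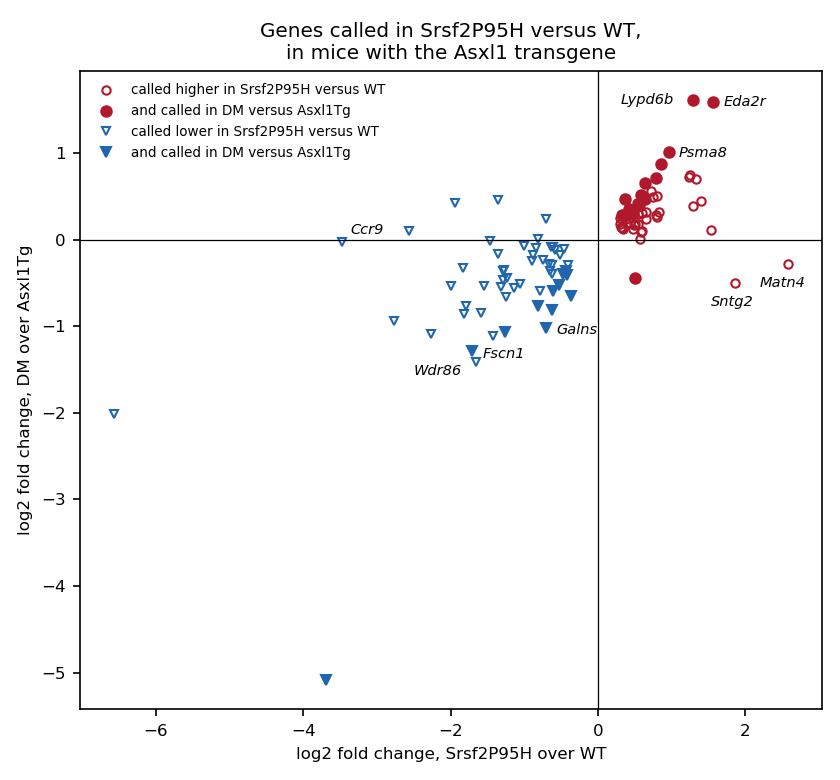
Each of the 115 genes called in Srsf2P95H versus WT is placed by its log2 fold change there (x axis) and in DM over Asxl1Tg (y axis); red circles rose and blue triangles fell, and filled symbols were called in both. Of the 115, 107 lie in the quadrants of equal sign.

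Few genes of the splicing machinery were called. Of 34 core spliceosome genes 33 had a positive log2 fold change, with a median of 0.25 against -0.05 over all genes, and 0 were called with edgeR, 4 with limma-voom and 9 with DESeq2, all higher. Of the 34, 20 did not overlap between the groups in the higher direction, against 8.33% of all genes. Prpf8, a central scaffold of the spliceosome, had 1201, 1122, 1191 and 1072 CPM in Srsf2P95H 1 to 4, against 1054, 1038, 957 and 861 CPM in WT 1 to 4, with WT 4 lowest (log2 fold change 0.23, SE 0.086, edgeR adjusted p = 0.113). Of 23 hnRNP genes edgeR called 1, Hnrnpa2b1 (11 higher at an unadjusted p under 0.05), limma-voom 2 and DESeq2 4, all higher (median of the list 0.19), and of 16 SR protein genes 0 were called with edgeR, 2 with limma-voom and 4 with DESeq2 (median 0.14). Srsf1, a founding member of the family, had 678, 459, 583 and 565 CPM in Srsf2P95H 1 to 4, against 434, 422, 397 and 342 CPM in WT 1 to 4, without overlap (log2 fold change 0.52, SE 0.13, edgeR adjusted p = 0.0578). Of 18 genes of nonsense-mediated decay, which removes transcripts with premature stop codons, edgeR called 0, limma-voom 2 higher and 1 lower and DESeq2 3 higher (median 0.13). Of 21 genes known as splicing targets of mutant SRSF2, edgeR called 0, limma-voom 2 and DESeq2 3, all higher (median 0.08, which turned to -0.04 with library size scaling). Ezh2, the H3K27 methyltransferase and the best known of these targets, had 175, 148, 175 and 161 CPM in Srsf2P95H 1 to 4, against 140.0, 141, 132 and 139.6 CPM in WT 1 to 4, and the mutants were all above the controls without a call (log2 fold change 0.25, SE 0.085, edgeR adjusted p = 0.0878). With edgeR, 19 core spliceosome genes, 5 SR protein genes, 8 decay genes and 5 targets were higher at an unadjusted p under 0.05. Lower were 0, 1, 1 and 2, against 14.2% higher and 11.1% lower of all genes tested. The median over all genes rose with level. It was -0.29 under 1 CPM, 0.08 at 10 to 100 CPM and 0.12 at 100 CPM or more. The SR protein, decay and target medians lay near those of abundant genes, and the core spliceosome and hnRNP medians above them. The shares of all genes were not split by level. Of all 22749 genes, limma-voom called 963 higher and 670 lower, and DESeq2 1624 and 978.

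Genes of growth and protein handling had almost only positive log2 fold changes, with very few calls. All 31 proteasome genes tested had positive log2 fold changes (median 0.32), as did all 34 nuclear genes of oxidative phosphorylation (0.28), all 33 of DNA replication (0.33) and all 20 of the unfolded protein response (0.52), and 31 of 32 of MYC and ribosome biogenesis (0.35). The only edgeR call among these lists was Psma8. Limma-voom called 12, 4, 9, 8 and 5 members higher and DESeq2 19, 9, 16, 14 and 13, and with edgeR 27, 30, 29, 16 and 26 had an unadjusted p under 0.05. Without overlap between the groups were 22 of 31, 20 of 34, 13 of 33, 7 of 20 and 15 of 32 members. Over all genes tested, 8.33% lay without overlap in the higher direction, and 14.2% were higher at an unadjusted p under 0.05 with edgeR. EdgeR called 0.264% higher, limma-voom 963 of the 22749 genes and DESeq2 1624. None of these shares was split by level. The median of all genes was 0.08 at 10 to 100 CPM and 0.12 at 100 CPM or more. Psma7, a core subunit, had 191, 185, 191 and 188 CPM in Srsf2P95H 1 to 4, against 166, 158, 145 and 116 CPM in WT 1 to 4 (log2 fold change 0.37, SE 0.099, edgeR adjusted p = 0.0586). Npm1, a nucleolar chaperone, had 1420.5, 1202, 1367 and 1267 CPM in Srsf2P95H 1 to 4, against 1090.5, 1052, 924 and 748 CPM in WT 1 to 4 (log2 fold change 0.46, SE 0.12, edgeR adjusted p = 0.0580). Calr, a chaperone of the endoplasmic reticulum, had 2191, 1794, 1707 and 2100.3 CPM in Srsf2P95H 1 to 4, against 1503, 1401, 1063 and 849.7 CPM in WT 1 to 4 (log2 fold change 0.69, SE 0.19, edgeR adjusted p = 0.0617). In these 3 genes WT 4 was the lowest of the 8 libraries, and it was the lowest on 17 of all 44 lists. Without WT 4 the medians stayed positive at 0.24, 0.19, 0.26, 0.45 and 0.25. In DM over Asxl1Tg they were 0.05, 0.07, 0.03, 0.15 and -0.13.

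In the lists of p53 targets, the integrated stress response and DNA repair edgeR called 1 gene each. Over all 22749 genes tested, 14.2% were higher and 11.1% lower at an unadjusted p under 0.05 with edgeR. EdgeR called 0.264% higher and 0.242% lower. Limma-voom called 963 genes higher and 670 lower in all, and DESeq2 1624 and 978. Of 24 p53 targets it called Eda2r (9 higher and 2 lower at an unadjusted p under 0.05), limma-voom 3 higher, and DESeq2 5 higher and 1 lower. The list median was 0.20 in Srsf2P95H over WT and 0.17 in DM over Asxl1Tg, and the first was 0.04 without WT 4 and Srsf2P95H 2 and ran from -0.02 (without Srsf2P95H 2) to 0.24 over the alternatives. Ccng1 (cyclin G1), another p53 target, had 117, 91.5, 91.0 and 95.1 CPM in Srsf2P95H 1 to 4, against 74.7, 82.1, 83.5 and 76.2 CPM in WT 1 to 4, without overlap and just outside the call (log2 fold change 0.32, SE 0.078, edgeR adjusted p = 0.0552). Of 19 genes of the integrated stress response edgeR called Nupr1, limma-voom 3 and DESeq2 6, all higher (median 0.44). Of 28 DNA repair genes edgeR called Trp53bp1 lower (9 higher and 2 lower at an unadjusted p under 0.05), limma-voom 3 higher and 1 lower, and DESeq2 4 higher and 1 lower (median 0.12). Of 18 Notch genes edgeR called Jag1 (1 higher and 4 lower at an unadjusted p under 0.05), limma-voom 1 higher and 1 lower, and DESeq2 1 higher. The median of the Notch list was -0.19, with 13 negative values. The receptors Notch1 (-0.40) and Notch2 (-0.16) were not called with edgeR. Of 24 adhesion and cytoskeleton genes edgeR called Tln2 higher and Fscn1 lower, limma-voom 4 higher and 1 lower, and DESeq2 5 higher and 1 lower.

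Genes of the progenitor branches differed in sign. The counts below stand beside 14.2% higher and 11.1% lower of all 22749 genes at an unadjusted p under 0.05 with edgeR. Among all genes edgeR called 0.264% higher and 0.242% lower, limma-voom 963 and 670 genes, and DESeq2 1624 and 978. Of 19 lymphoid-primed progenitor genes 2 had a positive log2 fold change, with a median of -0.77, and edgeR called Ccr9 and Lax1 lower (1 gene higher and 12 lower at an unadjusted p under 0.05). Limma-voom called 1 higher and 2 lower, and DESeq2 1 higher and 7 lower. The mean log2 CPM of the list was 3.97, 4.47, 4.24 and 4.50 in Srsf2P95H 1 to 4, against 4.26, 5.28, 4.95 and 5.89 in WT 1 to 4, so that WT 1 lay among the mutants. Lists of other cell types had similar medians. Dendritic cell genes, which include Ccr9 and Flt3 as well, had -0.73 over 13 genes (1 called lower with edgeR, 7 lower at an unadjusted p under 0.05), and T and natural killer cell genes had -0.82 over 17 genes (0 called with edgeR, 5 lower at an unadjusted p under 0.05, 2 called lower with limma-voom and 2 with DESeq2). Without WT 4 the medians of these lists were -0.26 and -0.54. The part of such cells in the fall of Ccr9 and Lax1 was not tested. All 19 granulocyte-monocyte progenitor genes had positive values (median 0.60), and 0 were called with edgeR (12 at an unadjusted p under 0.05), 3 with limma-voom and 6 with DESeq2. Mpo, myeloperoxidase of neutrophil granules, had 2817, 3654, 3965 and 3436 CPM in Srsf2P95H 1 to 4, against 2789, 2488, 772 and 1259.9 CPM in WT 1 to 4, with Srsf2P95H 1 and WT 1 nearly equal and WT 3 lowest (log2 fold change 0.92, SE 0.38, edgeR adjusted p = 0.151). Without WT 3 the median of the list was 0.43. The 15 mature neutrophil genes had a median of 0.78 with 10 positive values (0 called with edgeR, 3 higher at an unadjusted p under 0.05, 1 called with limma-voom and 2 with DESeq2), and 1.57 without WT 4 and 0.52 without WT 3. Their mean log2 CPM was 1.94, 0.579, 1.41 and 0.317 in Srsf2P95H 1 to 4, against 0.776, -0.321, -1.85 and 1.94 in WT 1 to 4, again lowest in WT 3. S100a8, a calcium-binding protein of neutrophils, had 60.2, 27.2, 68.9 and 19.4 CPM in Srsf2P95H 1 to 4, against 25.8, 24.5, 2.44 and 18.2 CPM in WT 1 to 4, and the part of mature neutrophils in the progenitor list was not tested. In DM over Asxl1Tg the medians of the lymphoid-primed and granulocyte-monocyte lists were -0.07 and 0.16. The mean log2 CPM of the lymphoid-primed list was 3.77, 4.70, 3.85 and 4.14 in Asxl1Tg 1 to 4, without the Srsf2 mutation. That of the granulocyte-monocyte list was 7.01, 6.30, 6.765 and 6.91 in the same libraries. It ran from 6.94 to 7.15 in Srsf2P95H and from 5.57 to 6.87 in WT.

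Of 30 haematopoietic stem cell genes 0 were called with edgeR (5 higher and 4 lower at an unadjusted p under 0.05), 1 with limma-voom and 4 with DESeq2 (median 0.02, -0.09 with library size scaling). The unadjusted counts are near the shares of all genes tested, 14.2% higher and 11.1% lower. Limma-voom called 1633 of all 22749 genes and DESeq2 2602. Of 9 Hoxa genes 0 were called with any of the 3 tools, and 3 were lower at an unadjusted p under 0.05 with edgeR (median -0.29). All 8 Hoxb genes tested had positive values (median 0.84), and 0 were called with edgeR (5 at an unadjusted p under 0.05), 3 with limma-voom and 3 with DESeq2. Hoxb5, a marker of long-term stem cells in mice, had 2.07, 3.08, 3.29 and 2.73 CPM in Srsf2P95H 1 to 4, against 1.84, 1.01, 1.21 and 1.67 CPM in WT 1 to 4. The mutants lay above the controls, just outside the call (log2 fold change 0.96, SE 0.23, edgeR adjusted p = 0.0546). Genes of mature cells that a bead enrichment can carry over varied by library. The mean log2 CPM of 16 B cell genes was 3.19 in WT 4 and between -0.115 and 0.984 in the other 7 libraries, and that of 11 eosinophil genes was 5.86 in WT 4 and 0.746 in WT 3. Their medians in Srsf2P95H over WT, -1.49 and -1.25, became -0.41 and 0.35 without WT 4. No member was called with edgeR (9 B cell and 0 eosinophil genes lower at an unadjusted p under 0.05) or limma-voom, and 3 B cell genes were with DESeq2. A fit with the marker level of each library as a covariate called 32 genes, all among the 115.

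**Figure D5:**
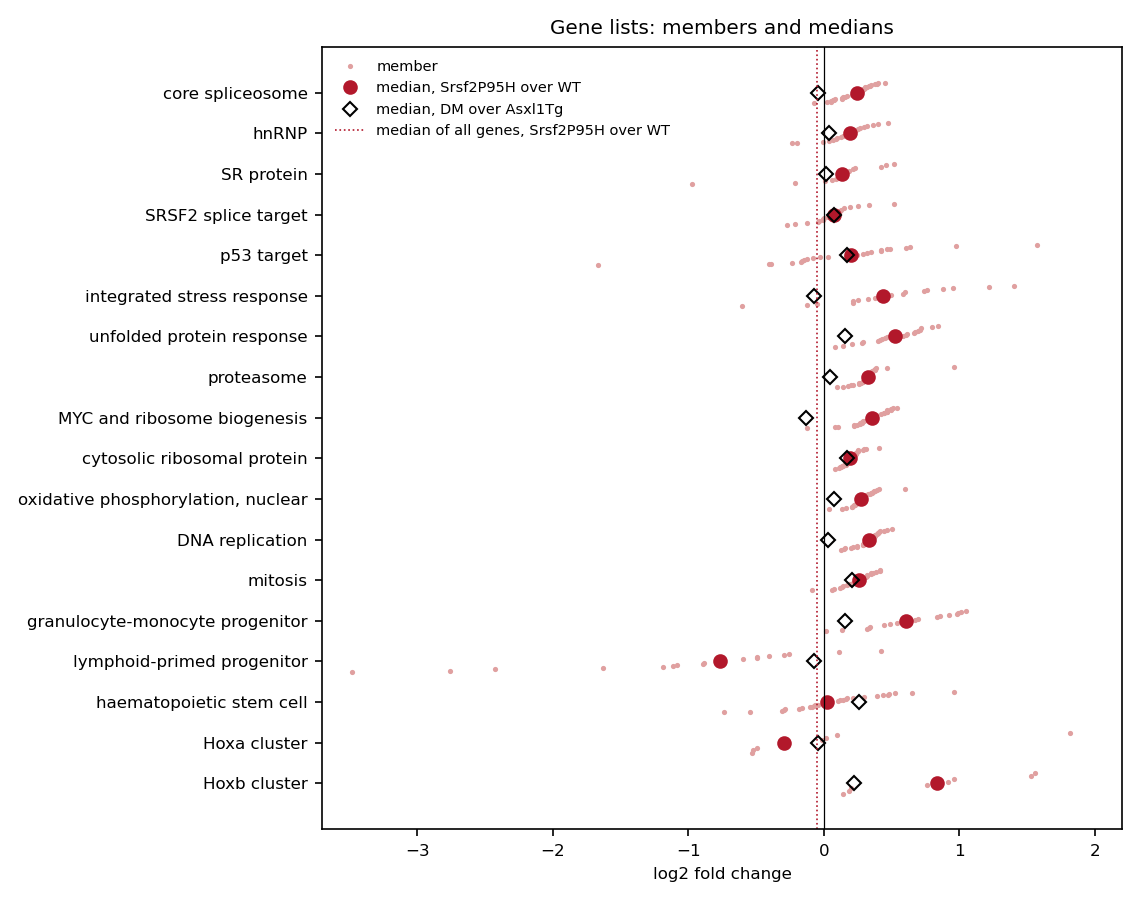
Rows are gene lists and the x axis is the log2 fold change. Small points are the members in Srsf2P95H over WT, red circles their medians, open diamonds the medians in DM over Asxl1Tg, and the dotted line the median of all genes tested in Srsf2P95H over WT. The circles of the proteasome, MYC and replication lists lie between 0.32 and 0.35, while their diamonds lie between -0.13 and 0.05.

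The coding sequences of the called genes were read for the motifs CCNG and GGNG on the coding strand, counting overlapping matches, in the GENCODE M21 annotation. The genes that rose held a median of 21.8 CCNG per kilobase and those that fell 27.9, against 23.2 over 14116 protein-coding genes. For GGNG the medians were 19.7, 23.1 and 19.8, and the median ratio of CCNG to GGNG was 1.11, 1.19 and 1.15. The fallen genes also had longer coding sequences (median 2048 bases, against 1101 for the risen and 1407 overall) and more G and C (56.3%, 52.3% and 53.2%). These are descriptions of whole coding sequences and locate no binding of the protein.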

How the data were processed

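RNA of 16 LSK samples from individual mice was sequenced as paired-end reads, per the labels' protocols. The authors deposited raw counts per gene, without normalization, made with mm10, STAR 2.7.0e, HTSeq 0.11.2, Trimmomatic 0.38 and FastQC, per the submitters' processing notes. The annotation release and whether strand was used are not stated in the sources used here. Columns of the transgene group bear a short name, and elimination assigned them. The series text gives 3 double mutants, whereas the labels and table hold 4.

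The test was that of edgeR 4.0.16 under R 4.3.3 (filterByExpr with a minimum count of 10, TMM, robust quasi-likelihood fit on all 16 libraries, Benjamini-Hochberg over 22749 genes). SE is the standard error of a log2 fold change, and CPM are TMM-scaled counts per 1000000 counts. The median SE was 0.235 over all genes and 0.0981 over the 9443 genes above 10 CPM. Annotation came from GENCODE M21 (GRCm38), with 53186 of 55291 symbols matched to a lone gene. The self-test simulated counts gene by gene from the mean levels and spread of these libraries. A limit was set on the share of false calls, wider than the nominal rate. EdgeR and limma-voom kept within it, and DESeq2 exceeded it, as it also did with other random seeds and another dispersion model. No shift of a whole library was simulated, so the self-test does not cover such shifts. The limit on false calls was therefore required of edgeR and limma-voom only, a change made after that result was seen.

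Genes are named by a rule: Srsf2, then among called genes of at least 1 CPM the 12 largest rises, the 12 largest falls, the 8 most abundant and the 8 with the smallest p and the same direction in DM versus Asxl1Tg, and every called member of a list. Some genes are not reported here. The 44 lists came from textbook knowledge. Members and lists were chosen with earlier results of these data known. Alternatives were DESeq2 1.42.0, limma 3.58.1 (voom with quality weights), library size only, RLE factors, no filter, 1 CPM in 4 libraries, compared groups only, the replicate block, covariates for Xist and marker level, non-robust dispersion, and libraries left out. Correlations between same-numbered libraries ran from -0.293 to 0.295, so the numbers were not taken as pairs.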

Additional observations from a re-analysis of the deposited data

Results flagged for a closer look

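In 172 checks of groups of 4 libraries, each asking whether the highest or lowest library stood apart from the rest, 3 did so, where chance flags about 1 in 20. Psma8 was at 13.25 CPM in Srsf2P95H 1, against 9.594 to 9.923 CPM in the other Srsf2P95H libraries, a gap of 0.91 of the range of the group. Lax1 was at 24.62 CPM in Srsf2P95H 2, against 14.74 to 16.34 CPM in the others (0.838 of the range). The mean log2 CPM of cytosolic ribosomal protein genes was 9.388 in WT 4, against 9.717 to 9.773 in the other WT libraries (0.855 of the range).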

How the results depend on the processing

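Against 115 calls (60 higher, 55 lower), DESeq2 gave 2602 (1624 and 978, 107 of the 115 among them), limma-voom 1633 (963 and 670, all 115 among them), library size only 217, the filter of 1 CPM in 4 libraries 202, the compared groups only 2, the replicate block 952 (all 115 among them), leaving out WT 4 and Srsf2P95H 2 together 298, the Xist covariate 56, the marker covariate 32, and the libraries low in Xist alone, a split chosen after seeing the data, 1395. On simulated counts DESeq2 exceeded the limit set on false calls and limma-voom did not. Leaving out 1 library gave 0 to 1638 calls. The cause was not tested. RLE factors, no filter and a non-robust fit gave 113, 90 and 111. Library numbers did not pair the mice: same-numbered Srsf2P95H and WT libraries correlated at -0.196 to 0.267, and 3 of 16 were closest to a library of their number. The share of called genes with the same direction in DM versus Asxl1Tg was 82.25% with the replicate block, 77.94% with DESeq2, 79.67% with limma-voom and 55.41% with the libraries low in Xist. The interaction called 0 genes, and 52 with DESeq2, 1 without a filter, 13 with the libraries low in Xist, and 0 to 7 with 1 library left out. No named gene changed direction. The smallest absolute log2 fold change called was 0.30 and the median SE 0.235 (0.0981 above 10 CPM). Small changes, above all of scarce genes, were thus not detectable. The edgeR p-values set a difference between groups against the spread between mice only, which was estimated over all 16 libraries.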

Other observations

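The following called genes were grouped after their values were seen, so their grouping supports nothing. Lysosomal enzymes moved in both directions. Idua (0.47), Man2b2 (0.38) and Dpp7 (0.79) rose on the log2 scale, whereas Galns fell. Dpp7, a lysosomal dipeptidyl peptidase, had 11.9, 9.78, 13.7 and 13.4 CPM in Srsf2P95H 1 to 4, against 7.54, 7.43, 5.63 and 7.61 CPM in WT 1 to 4 (log2 fold change 0.79, SE 0.15, edgeR adjusted p = 0.0379), and in DM over Asxl1Tg its log2 fold change was 0.71 (edgeR adjusted p = 0.0408). Genes of the endoplasmic reticulum and Golgi rose, among them Kdelr2 (0.54), Tmed7 (0.41), Alg2 (0.40), Hspa13 (0.54), Tmem165 (0.50) and Poglut2 (0.60). Kdelr2, a receptor that returns chaperones to the endoplasmic reticulum, had 119, 107, 112 and 109 CPM in Srsf2P95H 1 to 4, against 85.2, 83.3, 73.5 and 64.4 CPM in WT 1 to 4 (log2 fold change 0.54, SE 0.11, edgeR adjusted p = 0.0409).

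Genes of the primary cilium and Hedgehog signalling were among the falls, with Kif7 (-0.65), Wdr35 (-0.71) and Stk36 (-1.35). Kif7, a kinesin of the ciliary tip, had 4.62, 4.48, 5.26 and 3.94 CPM in Srsf2P95H 1 to 4, against 6.78, 6.61, 8.27 and 6.99 CPM in WT 1 to 4 (log2 fold change -0.65, SE 0.13, edgeR adjusted p = 0.0379). In DM over Asxl1Tg the log2 fold changes of these genes were -0.36, 0.23 and 0.46, and none was called there. Rps27l, a ribosomal protein paralogue known as a p53 target, had 119, 90.4, 101 and 112 CPM in Srsf2P95H 1 to 4, against 81.7, 72.6, 63.5 and 49.9 CPM in WT 1 to 4, with WT 4 lowest (log2 fold change 0.66, SE 0.14, edgeR adjusted p = 0.0406). This gene was not on the list of p53 targets.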
